A study of Homo sapiens with 2 samples.

Results

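The kinesin motors described here are the protein-coding genes named KIF or KIFC with a number and, for some, a letter A, B or C. Antisense genes, pseudogenes and the genes for the kinesin-binding proteins KIFAP3 and KIFBP were left out, and no measured value entered the choice. The rule found 42 genes among the 60683 in the count table, of which 19910 are protein-coding in GENCODE 29, and all 42 were matched to an Ensembl ID. By their known roles 14 were classed as mitotic, 15 as transport, 6 as ciliary and 7 as other or mixed. The samples are of the line HEK293T, an established line from human embryonic kidney that carries the SV40 large T antigen, with a stable knockdown of FKBP5 by short hairpin RNA. The labels put both samples in that 1 group, and they do not say which hairpin each sample carried, whether the cells were a clone or a pool, or whether each sample was its own culture, so their spread may be technical only. Cells with a scrambled control were not analysed here, so the values are levels in knockdown cells and differences between 2 libraries, and none is an effect of the knockdown.

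Kinesins are motors that bind microtubules through a conserved motor domain and turn the energy of ATP into movement or into the loss of tubulin from microtubule ends. In dividing cells some of them build the spindle, align chromosomes and assemble the midzone from which the cell is divided. In all cells others carry vesicles, mitochondria and lysosomes away from the cell centre, and motors of the kinesin-2 family build cilia. Mitotic kinesin genes are known as targets of the cell cycle transcription programme that peaks between the end of replication and mitosis, while several transport kinesins are known mainly from neurons.

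The libraries held 9997706 counts (sample 1) and 21284648 counts (sample 2), and kinesins took 0.311% of the counts of sample 1 (0.308 to 0.315%, 95% Wilson interval) and 0.316% of those of sample 2 (0.313 to 0.318%). A count of 3, used as the floor, equalled 0.289 CPM, the unit of counts scaled to library size, for sample 1 and 0.137 for sample 2. Intervals and floors cover counting error only. FKBP5 itself had 41 counts (3.95 CPM) in sample 1 and 77 counts (3.52 CPM) in sample 2, and without control cells this does not show how far it was reduced. Genes expected in this embryonic kidney line, PAX2, LIN28B and VIM among them, reached a mean of 1 CPM in 11 of 11 cases. Among blood cell markers 2 of 7 did, among fibroblast markers 3 of 7, and among all protein-coding genes 66.5%. NEFM is in the first of these lists and also among the neuron markers used below. The blood cell marker CD68 had no count, but 81.7% of its exon bases lie in exons of another same-strand gene. Of the 50-base stretches of its transcript only 2.57% occur in no other gene's transcript, so its lack of counts cannot be read as absence. The lists were chosen with earlier results of these data known, so these counts do not test the identity of the line. Levels of different genes are compared only as CPM per kb, that is CPM divided by the length in kilobases of all exons of the gene merged (GENCODE 29, GRCh38). In bulk RNA, fewer cells that express a gene and less RNA per cell cannot be told apart.

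Nearly the whole family was transcribed. Of the 42 kinesins, 38 had a mean of at least 1 CPM (90.5%), where 13244 of the 19910 protein-coding genes did (66.5%). A mean of at least 10 CPM was reached by 33 kinesins and 100 CPM by 10. The 5 with the highest CPM per kb were the same in both samples, KIF5B, KIF1C, KIF22, KIF18B and KIF26A, and they made up 39.8% of the summed kinesin CPM per kb in sample 1 and 39.2% in sample 2. The 4 kinesins below 1 CPM were KIF2B, KIF4B, KIF19 and KIF25. Mitotic members supplied 44.3% of the summed CPM per kb in sample 1 and 43.1% in sample 2. Transport members supplied 38.4% and 39.4%, ciliary members 6.59% and 6.85%, and the remaining members 10.7% and 10.6% (sample 1 and sample 2 in each case). The order of the 2 largest classes depends on the length used. As CPM with no length, transport members summed to 1463 CPM in sample 1 and 1533 in sample 2, and mitotic members to 1019 and 1010.

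**Figure D1:**
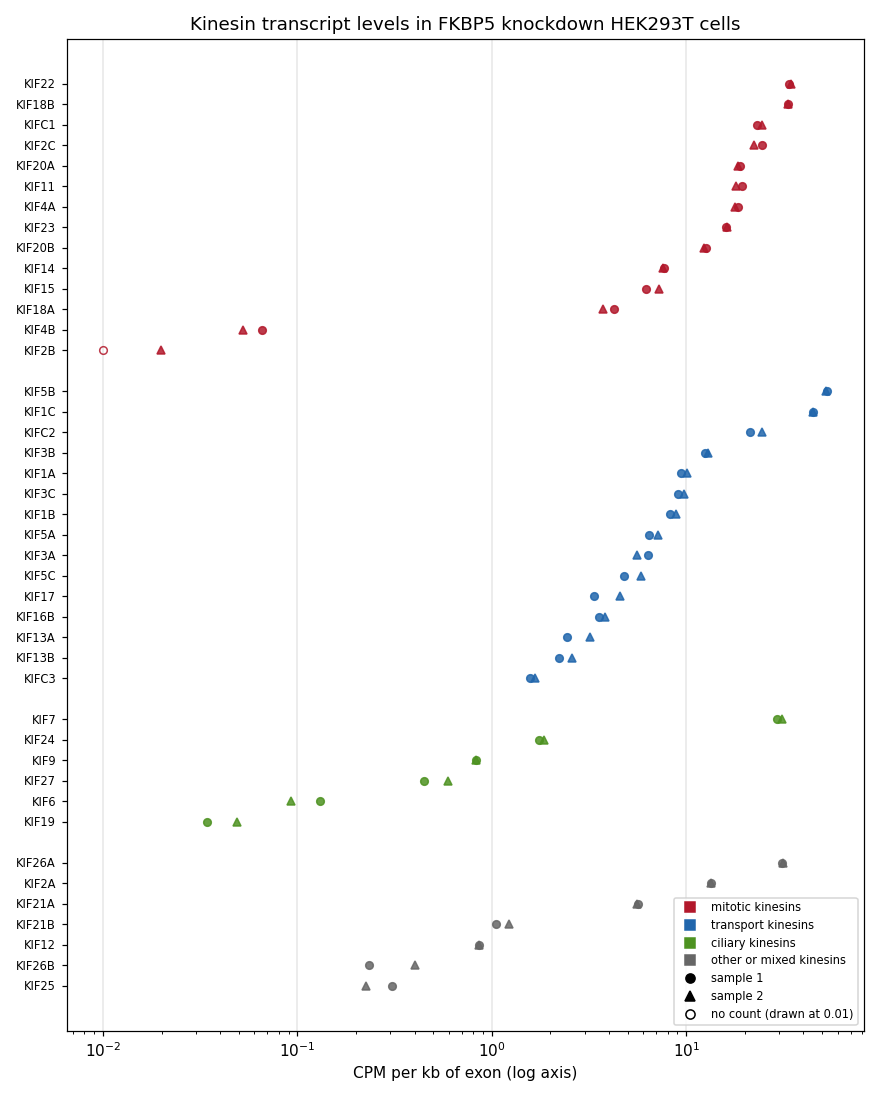
Level of each of the 42 kinesin genes in CPM per kb of exon (log axis) in sample 1 (circles) and sample 2 (triangles), grouped by class, with the open circle for a gene with no count in sample 1, drawn at the left edge. The samples lie close together for most genes, and the means of the samples fall between 3.98 and 34.1 CPM per kb for 12 of the 14 mitotic genes while KIF4B and KIF2B lie far below.

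The mitotic kinesins mostly lay above the median of expressed protein-coding genes, and 2 of them lay at the floor. The median over all 14 was 17.3 CPM per kb in sample 1 and 17.0 in sample 2, and 12 had a mean of at least 1 CPM, with a median of 18.4 CPM per kb. Among those 12 the highest level was 8.57 times the lowest. In the same samples the median of the expressed protein-coding genes (mean of at least 1 CPM) was 5.72 CPM per kb, with quartiles at 1.96 and 14.1. Of the 14 mitotic kinesins, 11 lay above that median and 8 above the upper quartile.

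KIF22, a chromosome-binding motor that pushes chromosome arms towards the spindle equator, led the mitotic class with 33.7 CPM per kb in sample 1 and 34.6 in sample 2. It spans bases 29790719 to 29805385 of chromosome 16 (plus strand; here and below the genes' positions are from GENCODE 29 on GRCh38). KIF18B, a motor that shortens astral microtubules, had 33.2 and 33.4 CPM per kb in samples 1 and 2 and spans bases 44924709 to 44947711 of chromosome 17 (minus strand). The means of these genes, 34.1 ± 0.629 for KIF22 and 33.3 ± 0.0929 CPM per kb for KIF18B (SD, n = 2), lay closer together than the samples of KIF22 did. Their distance depends on the length used. With the longest annotated transcript in place of all exons KIF22 stood at 58.7 and KIF18B at 36.8 CPM per kb, because the merged exons of KIF22 span 4312 bases and its longest transcript 2505.

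KIFC1, the minus-end-directed motor that focuses spindle poles and clusters extra centrosomes, had 23.2 CPM per kb in sample 1 and 24.4 in sample 2. Of its exon bases 12.7% overlap RPL12P1 on the opposite strand. KIF2C, the centromeric depolymerase also called MCAK, had 24.3 and 22.3 CPM per kb. These neighbours in rank had overlapping values. KIF20A, which brings the chromosomal passenger complex to the midzone, had 18.9 and 18.4 CPM per kb. KIF11, the tetrameric motor also known as Eg5 that slides spindle poles apart, had 19.3 CPM per kb in sample 1 and 17.9 in sample 2, and spans bases 92593286 to 92655395 of chromosome 10 (plus strand). KIF4A, a chromokinesin that sets midzone length, had 18.5 and 17.8 CPM per kb. KIF20A, KIF11 and KIF4A therefore stood at nearly equal levels, with means between 18.2 and 18.7 CPM per kb.

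KIF23, the motor subunit of centralspindlin, followed with 16.1 ± 0.147 CPM per kb and KIF20B, which acts in the last steps of cell separation, with 12.4 ± 0.189. KIF14, which recruits citron kinase for cytokinesis, had 7.63 ± 0.0558 CPM per kb, and KIF15, which backs up KIF11 in holding the spindle bipolar, 6.73 ± 0.771. KIF18A, which dampens chromosome oscillation at the equator, was the lowest of the expressed mitotic members at 4.23 CPM per kb in sample 1 and 3.72 in sample 2. Within the kinesin-8 family KIF18B was 7.85 times KIF18A per kb in sample 1 and 8.96 times in sample 2.

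KIF2B and KIF4B were at the floor. KIF2B, a kinesin-13 with 1 exon whose transcript is known mainly from testis, had 0 counts in sample 1, which by the exact Poisson interval allows up to 0.356 CPM, and 1 count in sample 2. KIF4B, an intronless copy of KIF4A on chromosome 5 from 155013755 to 155018132, had 3 counts in sample 1 and 5 in sample 2, where KIF4A had 871 and 1765. Of the 50-base stretches of the KIF4B transcript, 86.0% occur in no other gene's transcript, and the gene that shares most of the rest is KIF4A, so the few KIF4B counts and a part of those of KIF4A are uncertain. Of 10 germ cell markers, 1 reached a mean of 1 CPM and PRM1 had no count in either sample.

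Most mitotic kinesins also had a promoter feature in common that did not enter their choice. Promoter windows of 300 bases, from 250 before to 50 after each RefSeq gene start (GRCh38.p14), were found for all 14 mitotic genes and for 11 of the 15 transport genes, without KIF5A, KIF13B, KIFC2 and KIFC3. They were searched on both strands for the cell cycle genes homology region (CHR, taken as TTTGAA or TTCGAA), an element known to bind the DREAM and MuvB complexes at genes of late cell cycle, and for the CCAAT box (CCAAT), bound by NF-Y. A CHR and a CCAAT match can share at most 1 base. A CHR was present at 11 of 14 mitotic genes (78.6%), at 1 of 11 transport genes (9.09%) and at 17.5% of 15843 protein-coding genes. A CCAAT box was present at 11 of 14 mitotic genes (78.6%), 4 of 11 transport genes (36.4%) and 42.1% of protein-coding genes. Both together were found at 10 of 14 mitotic genes (71.4%), at 1 of 11 transport genes (9.09%), KIF5B, and at 7.28% of all. Of 4 ciliary genes with a window KIF24 had both, with 1 CHR and 3 CCAAT boxes, while the mitotic KIF2B and KIF2C had neither and KIF20A had CCAAT boxes alone. A gene with several starts had several windows, on average 1.07 for mitotic, 1.45 for transport and 1.40 for all protein-coding genes.

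**Figure D2:**
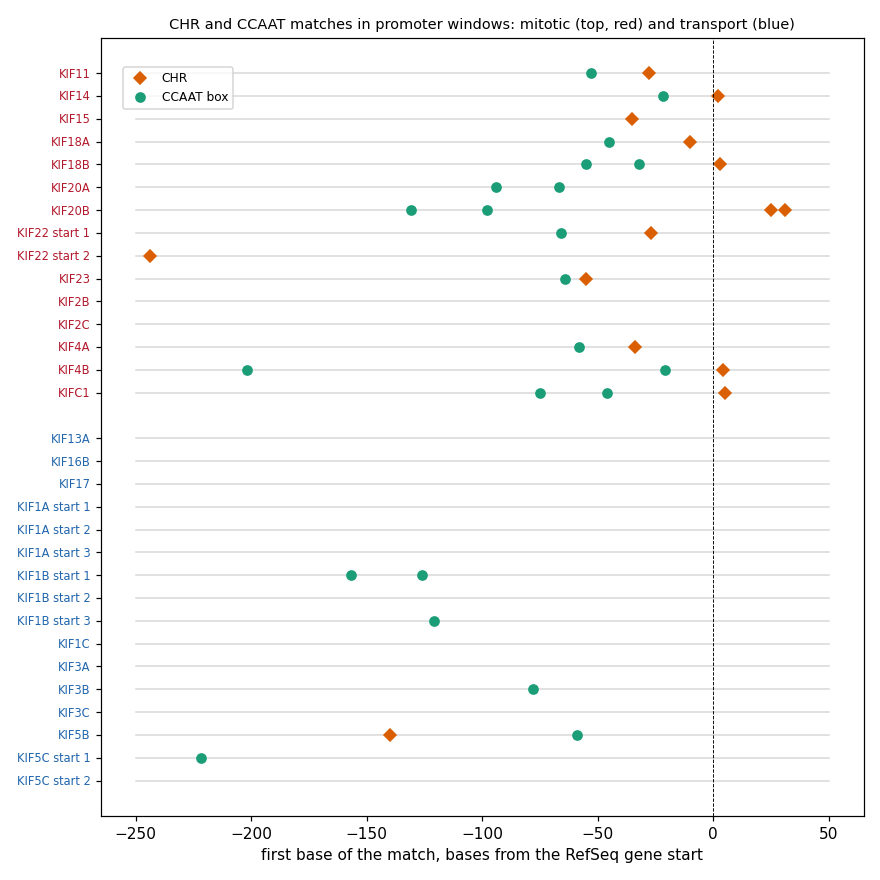
Positions of CHR (diamonds) and CCAAT (circles) matches in promoter windows, in bases from the RefSeq gene start, for mitotic genes (top) and transport genes (bottom), with 1 line for each start. Matches of the 2 kinds stand close to the start in most mitotic windows, and KIF5B holds the CHR match among the transport windows.

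The windows below show this arrangement at 6 mitotic genes, from 70 bases before to 12 after the start, and at 2 transport genes for contrast. Capitals mark CHR and CCAAT matches in either orientation. All are written 5′ to 3′ on the strand of the gene, from RefSeq (GRCh38.p14).
KIF11, chr10:92593060-92593141, plus strand: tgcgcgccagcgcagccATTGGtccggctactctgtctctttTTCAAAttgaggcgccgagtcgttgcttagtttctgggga
KIF4A, chrX:70290034-70290115, plus strand: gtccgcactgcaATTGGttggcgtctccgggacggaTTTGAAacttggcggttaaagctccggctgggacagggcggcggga
KIF22, chr16:29790681-29790762, plus strand: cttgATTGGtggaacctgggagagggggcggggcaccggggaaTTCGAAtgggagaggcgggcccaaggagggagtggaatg
KIF23, chr15:69414279-69414360, plus strand: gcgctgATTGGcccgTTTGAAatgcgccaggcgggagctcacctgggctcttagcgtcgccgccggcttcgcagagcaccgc
KIF18B, chr17:44947762-44947843, minus strand: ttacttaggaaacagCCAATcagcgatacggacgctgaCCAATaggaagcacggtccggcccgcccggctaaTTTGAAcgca
KIF18A, chr11:28108145-28108226, minus strand: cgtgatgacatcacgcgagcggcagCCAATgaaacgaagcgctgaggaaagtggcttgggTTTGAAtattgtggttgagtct
KIF5B, chr10:32056475-32056570, minus strand, from 145 to 50 bases before the start: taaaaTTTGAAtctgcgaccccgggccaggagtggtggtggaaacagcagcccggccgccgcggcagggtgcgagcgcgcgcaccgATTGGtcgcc
KIF1C, chr17:4997880-4997961, plus strand: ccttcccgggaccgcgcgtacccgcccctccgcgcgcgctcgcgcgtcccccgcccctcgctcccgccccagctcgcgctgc

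In KIF11, KIF4A and KIF22 the CCAAT match stands 53, 58 and 66 bases before the RefSeq start. The CHR stands 28, 34 and 27 bases before it. KIF18B has its CHR just past the RefSeq start, with CCAAT matches 55 and 32 bases before it. For KIF11 and KIF18B this start lies outside the GENCODE span given above. The KIF11 window ends at base 92593141 and the span begins at 92593286. The KIF18B window (minus strand) runs from 44947762 to 44947843 and the span ends at 44947711. All matches in the printed KIF11 and KIF18B windows therefore lie before the GENCODE start, the CHR of KIF18B included. The printed KIF23 and KIF18A windows lie inside the GENCODE spans, which begin at base 69414246 (KIF23) and end at 28108308 (KIF18A, minus strand). Their matches therefore lie after the GENCODE start. The CHR of KIF22 also lies past its GENCODE start at base 29790719. In KIF5B the order is reversed, with the CHR 140 and the CCAAT box 59 bases before the start, and KIF1C has neither in its window. Presence of a match and level did not go together in every case. KIF2C, without a match, had 23.3 ± 1.48 CPM per kb, while KIF4B had both and 8 counts over the samples. Such a match is a run of letters and does not show that a factor was bound.

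Transport kinesins were all expressed and lay lower at the median than the mitotic class. All 15 had a mean of at least 10 CPM. Their median was 6.40 CPM per kb in sample 1 and 7.15 in sample 2, and 9 lay above the median of expressed protein-coding genes. The median of the mitotic class was 2.53 times that of the transport class over both samples. The classes overlapped, since 3 transport genes lay above the mitotic median and 10 of 14 mitotic genes above the transport median. The distance also depends on the length used, since by coding length the ratio of the medians was 1.33 and by CPM with no length 1.65, where merged exons gave the 2.53. No test was made of this difference between lists.

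**Figure D3:**
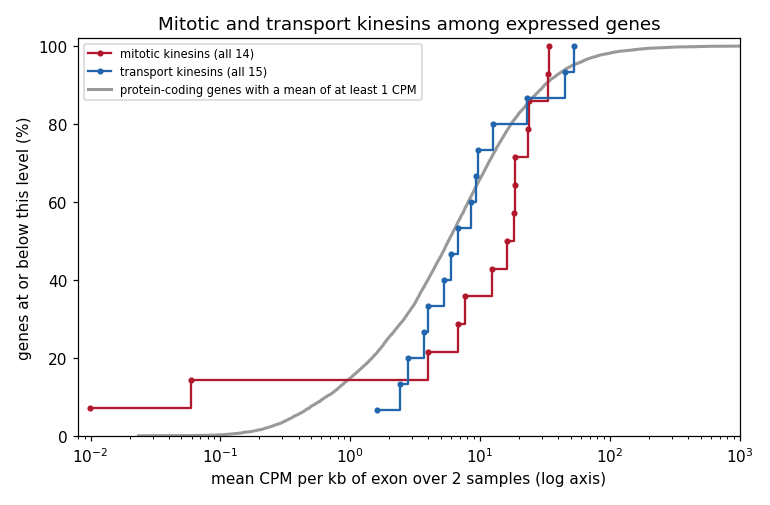
Cumulative share of genes (%) at or below each mean level in CPM per kb of exon (log axis) for the 14 mitotic kinesins, the 15 transport kinesins and 13244 expressed protein-coding genes. The mitotic curve runs to the right of the others over its middle part, and KIF1C and KIF5B of the transport curve are the highest of the kinesins, below the top of the protein-coding curve.

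KIF5B, the ubiquitous heavy chain of conventional kinesin, which carries mitochondria, lysosomes and vesicles, had the highest CPM per kb of all 42 genes. It had 53.0 CPM per kb in sample 1 and 52.0 in sample 2, far above the upper quartile of expressed protein-coding genes. The gene spans bases 32009010 to 32056431 of chromosome 10 (minus strand). KIF1C, a kinesin-3 that moves vesicles, integrins and mRNA, followed with 44.8 and 45.0 CPM per kb in samples 1 and 2, and spans bases 4997948 to 5028401 of chromosome 17 (plus strand). With the longest transcript as the length, KIF22 stood above both, at 58.7 CPM per kb against 52.5 for KIF5B and 48.6 for KIF1C. With no length scaling KIF1C stood above KIF5B, with means of 385 and 309 CPM.

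The next transport genes were far below. KIFC2, a kinesin-14 known from axonal and dendritic transport in the mouse, had 21.2 CPM per kb in sample 1 and 24.5 in sample 2. On the opposite strand 17.8% of its exon bases overlap FOXH1, and the sources used here do not give the strand setting of the counting, so a part of its counts is uncertain. KIF3B, a motor subunit of heterotrimeric kinesin-2, had 12.5 and 12.8 CPM per kb. KIF1A, a carrier of synaptic vesicle precursors, had 9.37 and 10.1 CPM per kb, and KIF3C, another kinesin-2 subunit, 9.02 and 9.67. The values of KIF1A and KIF3C overlapped.

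By merged exons KIF1B, which carries mitochondria and synaptic vesicle precursors, came below KIF1A and KIF3C at 8.55 ± 0.434 CPM per kb. It was followed by KIF5A at 6.78 ± 0.526, KIF3A at 5.97 ± 0.523 and KIF5C at 5.31 ± 0.760. KIF17, a homodimeric kinesin-2 that in mouse neurons carries NMDA receptors, had 3.97 ± 0.857 CPM per kb, and KIF16B, a motor of early endosomes, 3.69 ± 0.170. KIF13A had 2.81 ± 0.530 CPM per kb, KIF13B 2.40 ± 0.277 and KIFC3, a minus-end-directed motor, 1.62 ± 0.0722, the lowest of the class. Its position rests on its annotation, because the merged exons of KIFC3 are 9600 bases and its longest transcript 3427, and by the latter it had 4.53 CPM per kb. KIF1A, KIF5A, KIF5C and KIF17 are known mainly from neurons. Of 15 neuron markers, 10 reached a mean of 1 CPM, beside 66.5% of all protein-coding genes. The median over the 15 was 0.857 CPM per kb in sample 1 and 0.913 in sample 2. The neurofilament gene NEFL was highest at 70.5 CPM per kb in sample 1 and 66.7 in sample 2. The markers together had 443 CPM in sample 1, against 425 in sample 2, of which NEFL held 305 and 289 CPM. DCX had no count in sample 1 and 7 in sample 2. The part of such cell states in the kinesin levels was not tested.

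Within families 1 gene usually held most of the level. In kinesin-1 KIF5B made up 82.6% of the summed CPM per kb in sample 1 and 80.0% in sample 2. By counts it held 78.8% of kinesin-1 (77.5 to 80.0%, 95% Wilson) in sample 1 and 75.6% (74.7 to 76.5%) in sample 2, and these intervals do not overlap. KIF5C held 7.43% of the CPM per kb in sample 1 and 8.99% in sample 2, and KIF5A the rest. The light chain genes, whose products link the heavy chains to cargo, were lower than KIF5B. KLC2 had 15.9 ± 1.14 CPM per kb and KLC1 3.78 ± 0.311, although only 55.0% of the 50-base stretches of the KLC1 transcript are found in no other gene.

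**Figure D4:**
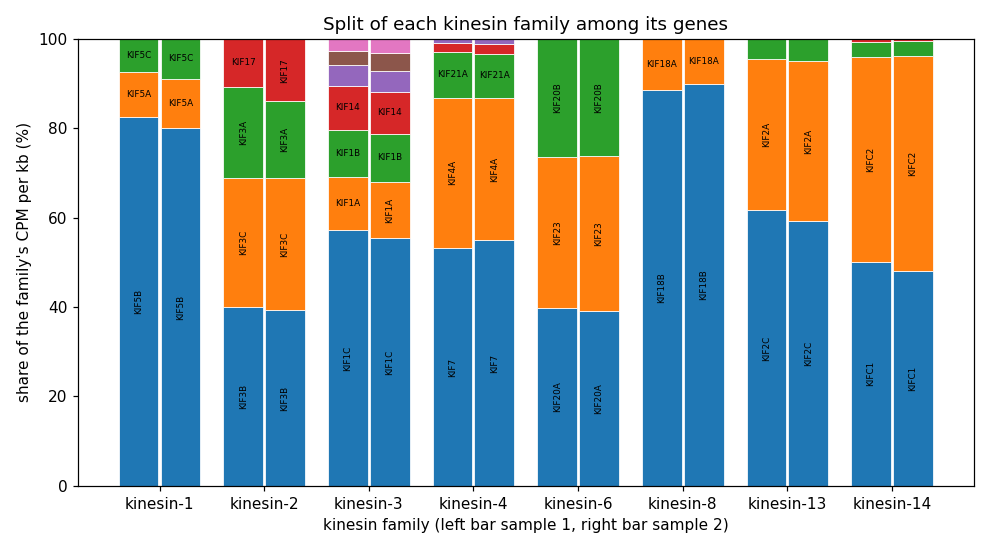
Share of each kinesin family's summed CPM per kb (%) held by each of its genes, for the 8 families with 3 or more members, with sample 1 on the left and sample 2 on the right of each pair of bars; the thinnest segments carry no name. KIF5B and KIF18B hold over 80% of their families, while kinesin-2 is spread over 4 genes and kinesin-6 over 3.

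Kinesin-2 was divided more evenly. KIF3B, KIF3C and KIF3A made up 40.0%, 28.9% and 20.3% of its CPM per kb in sample 1 and 39.3%, 29.6% and 17.1% in sample 2, with KIF17 as the rest. KIF3A pairs with KIF3B in the motor that builds cilia, yet it had 0.509 times the KIF3B level in sample 1 and 0.436 times in sample 2. KIFAP3, the subunit that joins this pair to cargo, had 4.84 ± 0.270 CPM per kb, and KIF3B was 2.62 times as high. In kinesin-3 KIF1C made up 57.2% in sample 1 and 55.5% in sample 2. Its mean level was 4.62 times that of KIF1A and 5.25 times that of KIF1B. By the longest transcript it was 2.76 and 3.42 times as high. KIF13B, with 2.81% in sample 1 and 3.20% in sample 2, was the lowest of the 7 kinesin-3 members.

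The kinesin-6 family had 3 mitotic members at similar levels, with KIF20A at 39.8% and 39.2%, KIF23 at 33.7% and 34.6% and KIF20B at 26.5% and 26.2% in samples 1 and 2. By the longest transcript KIF23 (28.5 CPM per kb) stood above KIF20A (23.1). In kinesin-13 KIF2C made up 61.7% in sample 1 and 59.3% in sample 2, and KIF2A, which depolymerises microtubules at spindle poles and in axons, 33.9% and 35.7%. KIF2A had 13.4 CPM per kb in both samples, and 8.97% of its exon bases overlap exons of IPO11 on the same strand. In kinesin-14 KIFC1 and KIFC2 were nearly equal, with 50.1% and 45.8% in sample 1 and 48.0% and 48.3% in sample 2, while KIF25 held 0.662% and 0.442%.

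Of the kinesins with ciliary roles, KIF7 alone was high. KIF7, the kinesin-4 that organises the tip of the primary cilium in Hedgehog signalling, had 29.2 CPM per kb in sample 1 and 30.9 in sample 2. It spans bases 89608789 to 89655451 of chromosome 15 (minus strand), and 11.8% of its exon bases overlap TICRR on the opposite strand. KIF24, which restrains cilium formation at the mother centriole, had 1.80 ± 0.0802 CPM per kb. KIF9 had 0.826 ± 0.00378 and KIF27 0.523 ± 0.104 CPM per kb, and KIF7 was 57.5 times KIF27. These values of KIF9 and KIF27 are uncertain, since 89.8% and 64.7% of their 50-base stretches occur in no other gene. KIF6 had 16 counts in sample 1 and 24 in sample 2, and KIF19, which sets the length of motile cilia in the mouse, 2 and 6. Of 12 markers of motile cilia 4 reached a mean of 1 CPM, and FOXJ1, the master regulator of motile cilia, had 1 count in sample 1 and 15 in sample 2.

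Among the other members KIF26A was far above its partner in the kinesin-11 family. KIF26A, an atypical kinesin without ATPase activity, had 31.0 CPM per kb in sample 1 and 31.5 in sample 2, and spans bases 104138723 to 104180894 of chromosome 14 (plus strand). KIF26B, the other member, had 0.234 CPM per kb in sample 1 and 0.403 in sample 2, from 35 and 127 counts. KIF21A, which limits microtubule growth at the cell cortex, had 5.62 ± 0.0581 CPM per kb and its paralog KIF21B 1.14 ± 0.122. KIF12 had 0.858 ± 0.00138 CPM per kb and KIF25 0.265 ± 0.0576, with 11 counts in sample 1 and 17 in sample 2. Kinesins outside the naming rule were intermediate. CENPE, the kinesin-7 that carries chromosomes to the spindle equator, had 6.20 CPM per kb in sample 1 and 6.51 in sample 2, and STARD9, a kinesin-3 of the centrosome, 1.96 and 2.09.

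The difference between the 2 libraries was compared for each gene with an exact binomial test of its counts, 2-sided, with Benjamini-Hochberg adjustment over the 15530 genes that reached a mean of 1 CPM. It compares libraries of 1 group and includes no variation between cultures. Of the 38 kinesins tested, 5 had an adjusted p under 0.05 and all were higher in sample 2, beside 8.97% of all genes called in either direction and 4.41% called higher. The 5 were 4 of the 15 transport members and KIF26B, and 0 of the 12 mitotic members tested were called. Among the mitotic members KIF15 and KIF2C had an unadjusted p under 0.05 by this test. The same was true of KIF1A, KIF1B, KIF13B and KIF3A among the transport members that were not called. Of these genes KIF2C and KIF3A were lower in sample 2 and the rest higher.

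KIF13A, a carrier of recycling endosomes, had 35.4 CPM in sample 2 and 27.1 in sample 1, a ratio of 1.31 (95% exact interval 1.14 to 1.50, adjusted p = 0.00296 by the exact binomial test). KIFC2 had 109 CPM in sample 2 and 94.2 in sample 1, a ratio of 1.16 (1.07 to 1.25, adjusted p = 0.00308 by the same exact test). KIF5C had 53.9 CPM in sample 2 and 43.9 in sample 1, a ratio of 1.23 (1.10 to 1.37, adjusted p = 0.00517, exact). KIF17 had 20.5 CPM in sample 2 and 15.0 in sample 1, a ratio of 1.36 (1.13 to 1.64, adjusted p = 0.0140, exact). KIF26B had 5.81 CPM in sample 2 and 3.37 in sample 1, a ratio of 1.72 (1.18 to 2.58, adjusted p = 0.0468, exact), and it was not called with a minimum of 1 count or excluded by a minimum of 10 CPM.

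**Figure D5:**
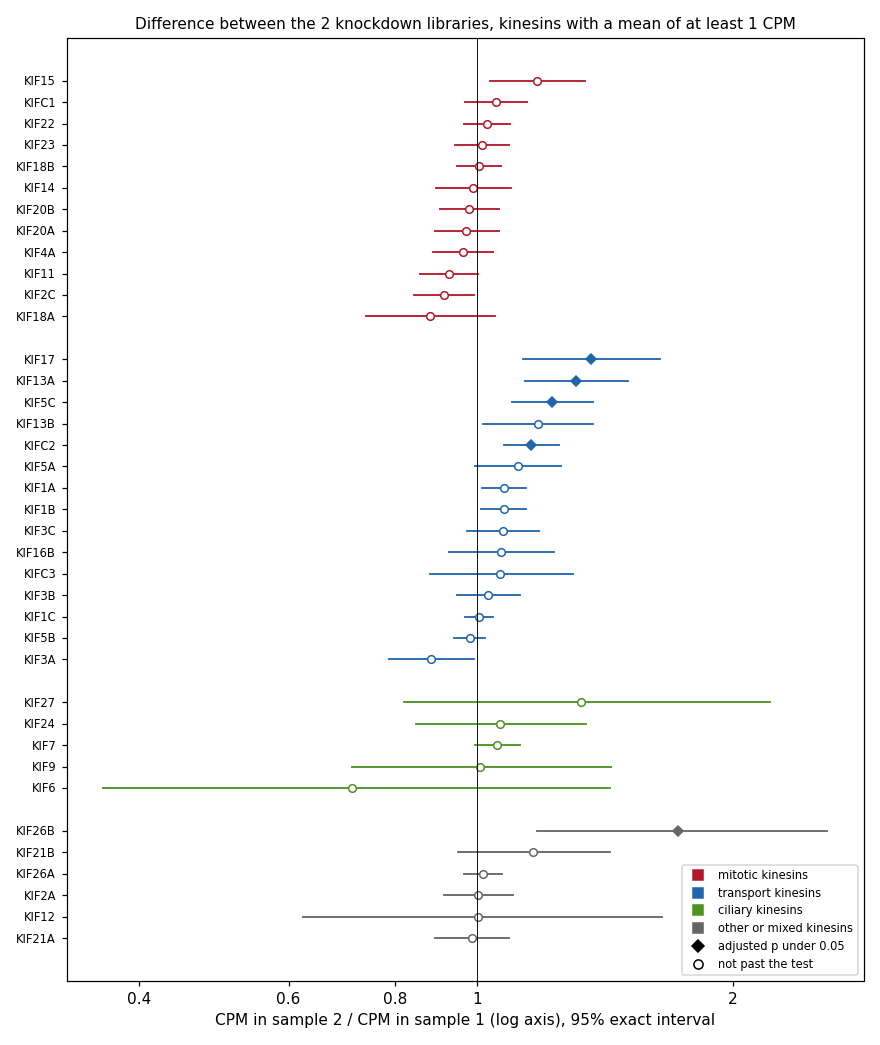
Ratio of CPM in sample 2 to that in sample 1 (log axis) with its 95% exact interval for the 38 kinesins with a mean of at least 1 CPM, by class; filled diamonds passed the exact binomial test. The transport genes lie mostly to the right of 1, and the mitotic genes on both sides of it.

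Transport kinesins lay mostly above equality between the libraries and mitotic kinesins around it. Of the mitotic members 5 of 12 had a ratio above 1 (median of the log2 ratio -0.02), and of the transport members 13 of 15 (median 0.10). Over all expressed protein-coding genes 51.9% had a ratio above 1 (median 0.01). Scaling to the column totals left 4 of 12 mitotic and 12 of 15 transport members higher in sample 2, and TMM scaling gave the same counts. KIF3A (ratio 0.883) and KIF5B (0.980) were the transport members lower in sample 2 as deposited. The tested mitotic members had a median of 4.66 kb of exon and 44.3% GC in their longest transcripts, and the transport members 7.72 kb and 51.4%, and the part of length and base composition in this difference was not tested.

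Genes that act with the mitotic kinesins were also high. Of 27 partners and regulators all had a mean of at least 1 CPM, with a median of 20.7 CPM per kb in sample 1 and 19.0 in sample 2, and 25 lay above the median of expressed protein-coding genes. AURKB, the kinase of the chromosomal passenger complex, led with 106 ± 3.19 CPM per kb, followed by TPX2, which targets KIF11 and KIF15 to the spindle, at 63.2 ± 2.47 and the survivin gene BIRC5 at 49.5 ± 2.53. KIF11 was 0.298 times TPX2 in sample 1 and 0.291 times in sample 2. RACGAP1, which joins KIF23 in centralspindlin, had 18.2 ± 0.0308 CPM per kb, and KIF23 was 0.883 times as high in sample 1 and 0.892 times in sample 2, an order that turned with the longest transcript as the length (1.13 times). PRC1, the midzone protein that recruits KIF4A, had only 14 counts in sample 1 and 32 in sample 2, but 57.6% of its exon bases lie in exons of another same-strand gene in GENCODE 29 and 36.1% of its 50-base stretches are unique to it. The same holds for NUSAP1, a spindle protein with 24 and 23 counts, at 62.2% and 32.0%, so neither level can be read as the abundance of its RNA. No kinesin had such an overlap, as KIF2A and KIF1B were the only ones of the 42 with any on the same strand.

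Between the libraries 2 of these 27 partners were called higher and 5 lower in sample 2, beside 4.41% and 4.56% of all genes. CKAP5, a microtubule polymerase, had the highest ratio of those called, with 239 CPM in sample 2 and 214 in sample 1. INCENP, a scaffold of the passenger complex, was the other one called higher, with 197 CPM in sample 2 and 179 in sample 1. CCNB1, which encodes cyclin B1 and was chosen after its values were seen, had the lowest ratio of those called, with 88.4 CPM in sample 2 and 106 in sample 1.

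Genes that act with the transport kinesins had a median of 7.04 CPM per kb in sample 1 and 7.01 in sample 2 over 24 light chains, subunits and cargo adaptors, and all 24 had a mean of at least 1 CPM. RHOT2, a mitochondrial GTPase that anchors kinesin-1 adaptors, led with 52.6 ± 0.212 CPM per kb, about the KIF5B level. PLEKHM2, which couples kinesin-1 to lysosomes, had 27.8 ± 0.252 CPM per kb. Of the 24, 4 were called higher in sample 2 and 1 lower, beside 4.41% and 4.56% of all genes. Among the higher ones were DENND1A, with 46.3 CPM in sample 2 and 38.6 in sample 1, and SPAG9, a scaffold for kinesin-1, with 202 CPM in sample 2 and 172 in sample 1.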

How the data were processed

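RNA-seq was done on 2 samples of HEK293T cells with FKBP5 knockdown, from total RNA with a directional NEBNext protocol, per the labels' protocols. The deposited gene counts are whole numbers with no normalization. The deposited CPM equal those counts times 1 constant per library (100% whole within 1e-06), from a library size set by the authors 3.78% (sample 1) and 2.68% (sample 2) above the column total. STAR 2.7.7a, edgeR and GRCh38 are named in the submitters' processing notes. For the counting program, its strand setting and annotation and its treatment of shared reads, nothing is given in the sources used here.

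Symbols were found for 99.5% of gene IDs, and 96.4% were in GENCODE 29, which gave lengths, overlaps and 50-base stretches shared between transcripts. The rest differ from the authors' annotation, so overlaps in their counting may differ. Intervals are 95% exact Poisson (CPM), Wilson (shares) and Clopper-Pearson (ratios). A 2-sided exact binomial test used the deposited scaling, with Benjamini-Hochberg adjustment, and was tested on simulated data. Both samples being of 1 group, edgeR's quasi-likelihood test could not be run. Members, classes and lists were chosen with earlier results of these data known, and the promoter motifs after the levels were seen. All 42 members are given. Of other lists, the text names the 3 highest per kb (1 of the cargo adaptor list is not reported here), those called with the 2 largest ratios, and further genes chosen after their values were seen (complex partners of a kinesin, overlapped genes, dynein chains, CCNB1 and single marker genes). Alternatives were scaling, CPM minimum, gene length, class membership and leaving out a sample. The tools were Python 3.11.15, scipy 1.17.1, statsmodels 0.14.6, R 4.3.3 and edgeR 4.0.16 (TMM only).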

Additional observations from a re-analysis of the deposited data

How the results depend on the processing

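The count of kinesins reaching 1 CPM (38) was 38 or 39 under both other scalings, at 0.5 CPM, in both samples and with either sample left out, and 33 at 5 CPM. The 5 kinesins separated between the libraries were 5 under both other scalings and 4 with no filter beyond 1 count or with a minimum of 10 CPM. The mitotic median (17.1 CPM per kb) was 17.7 with either other scaling, 18.8 by the longest transcript, 25.0 by coding length and 80.9 as CPM with no length. It was 16.1 with KIF2A or with CENPE added and 18.4 without KIF2B and KIF4B. The transport median (6.78) was 18.8 by coding length, 48.9 as CPM and 8.55 without KIF1A, KIF5A, KIF5C and KIF17. The KIF5B share of kinesin-1 (81.3%) was 78.5% by the longest transcript, 77.7% by coding length and 77.2% as CPM. The mitotic share of the summed level (43.7%) was 45.8%, 38.7% and 33.4% under the same lengths and 46.4% with KIF2A counted as mitotic. With 1 sample left out the ranges were 38 to 39 kinesins, 17.0 to 17.3 and 6.40 to 7.15 CPM per kb, 80.0 to 82.6% and 43.1 to 44.3%. By each length the mitotic median stayed above the transport median, but as CPM with no length the summed level was higher for the transport members. The cause of the changes was not tested. No paired analysis was possible because both samples belong to 1 group.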

Other observations

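The tracks and the opposing motor of the kinesins were abundant in the same cells. Of 15 tubulin genes 13 had a mean of at least 1 CPM, with a median of 37.0 CPM per kb in sample 1 and 37.4 in sample 2 over all 15. TUBB4B had 319 ± 8.52 CPM per kb, TUBB 272 ± 0.491 and the gamma-tubulin gene TUBG1, whose product nucleates microtubules, 86.0 ± 3.42. These levels are uncertain, since 88.4%, 72.4% and 69.7% of the 50-base stretches of TUBB4B, TUBB and TUBG1 are unique to the gene. TUBB3, known mainly from neurons, had 7 counts in sample 1 and 25 in sample 2, but 35.8% of its exon bases lie in exons of another same-strand gene and 20.4% of its 50-base stretches are unique to it. By the exact binomial test 0 of the 13 tubulin genes tested were called between the libraries, beside 8.97% of all genes, and 4 of them (TUBB2A, TUBB4B, TUBG1 and TUBG2) had an unadjusted p under 0.05.

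Cytoplasmic dynein, which moves cargo towards the cell centre, and its activator dynactin were measured with 29 genes, of which 28 had a mean of at least 1 CPM. Their median was 10.3 CPM per kb in sample 1 and 10.4 in sample 2. The light chain gene DYNLL1 was highest at 44.8 ± 1.74 CPM per kb, followed by the dynactin subunits DCTN1 at 35.6 ± 0.597 and DCTN2 at 34.4 ± 0.258. Of the intermediate chains DYNC1I2, with 67.4% of its stretches unique, had 16.9 ± 0.223 CPM per kb and DYNC1I1, known mainly from neurons, 0.221 ± 0.0154. DYNLT1, a light chain, was the 1 gene of the 28 tested that was called higher in sample 2, with 70.3 CPM in sample 2 and 60.4 in sample 1, beside 4.41% of all genes called higher.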
